A study of Canis lupus familiaris with 24 samples.

Results

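The interferon response genes described here are 48 genes listed by symbol: sensors of foreign RNA, the transcription factors of the interferon pathway, and the antiviral and antigen processing genes that interferons induce. They were looked up by symbol in the gene table of the series, and 40 of the 48 symbols were found, on 41 of its 32704 rows, because OASL stood on 2 rows (ENSCAFG00000024447 and ENSCAFG00000010511). Of these 41 rows, 39 held enough counts to be tested among the 12466 genes tested in all, and these 39 are called the tested genes below. ZBP1, a sensor of Z-form nucleic acids, had 3 counts over the 24 libraries and XAF1, an inducible apoptosis-related protein, had 6 counts, so neither was tested. STAT2, IRF7, USP18, HERC5, IFIT5, CMPK2, SAMD9 and EPSTI1 are not analysed here.

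The series measured messenger RNA by stranded sequencing in Madin-Darby canine kidney (MDCK) cells, which are epithelial cells of the dog kidney grown as a line, in the sublines MDCK-II and MDCK-NBL2. Each subline gave untreated cells of day 0 and day 4 and cells treated with TGFb until day 4, the cytokine used to drive epithelial to mesenchymal transition (EMT). The labels call the untreated cells epithelial, TGFb-treated MDCK-II cells partial EMT and TGFb-treated MDCK-NBL2 cells full EMT. At day 4 of TGFb, MDCK-NBL2 cells were also sampled after a control siRNA (siCTR, labelled full EMT) and after an siRNA against the transcription factor PRRX1 (siPRRX1, labelled partial EMT), so both siRNA groups carried TGFb. Each of the 8 groups had 3 libraries, with 6134929 to 27567296 counts per library, and the labels do not say that the replicates were separate cultures. The p-values then measure the spread between these libraries, which may be technical.

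Interferons are cytokines that cells release on sensing foreign nucleic acid, and their receptors signal through JAK kinases to STAT factors that, with IRF9, switch on interferon-stimulated genes. Many of these genes also have a basal level in resting epithelium, which is set by the same factors and by IRF1. Type I and type III interferons favour antiviral genes such as MX1 and IFIT1, whereas interferon gamma favours genes such as IDO1, CXCL10, GBP5, IRF1 and the immunoproteasome.

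Levels are given as CPM (counts per 1e+06) in replicates 1, 2 and 3 in that order. The total used was that of the library over the tested genes, multiplied by its TMM scaling factor. A gene is said to have risen or fallen where the adjusted p of edgeR's quasi-likelihood test was under 0.05, with p-values adjusted by the Benjamini-Hochberg method over all 12466 genes, and log2 fold changes are given ± their standard error. Reads could be shared between similar members of the OAS, OASL, MX and IFIT families, so the split between such members may be uncertain. Whether reads were shared was not tested. The RNA came from whole cultures, in which fewer cells expressing a gene and less RNA per cell cannot be told apart.

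The epithelial adhesion gene CDH1 was present at 727 to 1780 CPM in all 24 libraries. Of the other epithelial markers, EPCAM stood at 179 to 664 CPM and PAX8 at 88.6 to 348 CPM. CLDN3 stood at 8.75 to 106 CPM and CDH16 at 0 to 20.2 CPM. CDH16 was at 0 in 10 libraries, among them all MDCK-NBL2 libraries with TGFb, siRNA groups included. TGFb in MDCK-NBL2 lowered 4 of these 5 markers, where 44.3% of all genes were called. The leukocyte markers PTPRC, CD3E, CD79A, LYZ and CSF1R together reached at most 0.452 CPM in any library, with CD3E at 0 throughout. Several libraries stood apart from their replicates. Replicate 2 of untreated MDCK-NBL2 at day 4 held 596 CPM of the collagen gene COL1A1 against 0 in both other replicates, and its 22 cell cycle genes had a median 2.59 log2 units below the other replicates. The 5 fibroblast markers examined (COL1A1, DCN, LUM, PDGFRB and THY1) summed to 0 to 596 CPM in that group and to 1061 to 2151 CPM in MDCK-NBL2 with TGFb, with DCN, LUM, PDGFRB and THY1 at 0 in the untreated group. Replicate 1 of untreated MDCK-II at day 4 and replicate 1 of siPRRX1 also differed from their replicates in the interferon genes, and replicate 1 of MDCK-NBL2 at day 0 did so in IDO1 and GBP5, as given below. The library names fall into 2 series of numbers, whose meaning the labels do not state: replicate 1 of MDCK-NBL2 with TGFb and replicates 2 and 3 of both siRNA groups carry the later numbers.

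The level of the interferon genes differed more between libraries of the untreated day 4 and siPRRX1 groups than between libraries of the other groups. The median over the tested genes of log2 CPM relative to the mean of all 24 libraries was -0.23, -0.52 and -0.44 in MDCK-II at day 0. At day 4 it was 1.62, 0.24 and 0.47 in untreated MDCK-II and 1.53, 1.46 and 0.83 in MDCK-II with TGFb. In MDCK-NBL2 it was -1.34, -2.10 and -1.09 at day 0, 0.05, 1.05 and -0.58 untreated at day 4, and -0.42, -0.49 and -0.63 with TGFb. The siCTR libraries had medians of -0.81, -0.17 and -0.31, and the siPRRX1 libraries -0.21, 1.12 and 0.80. The same median over all genes tested lay between -0.02 and 0.04 in every library. All MDCK-II libraries of day 4, replicates 1 and 2 of untreated MDCK-NBL2 at day 4 and replicates 2 and 3 of siPRRX1 were above the mean, and the MDCK-NBL2 day 0 libraries were the lowest.

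**Figure D1:**
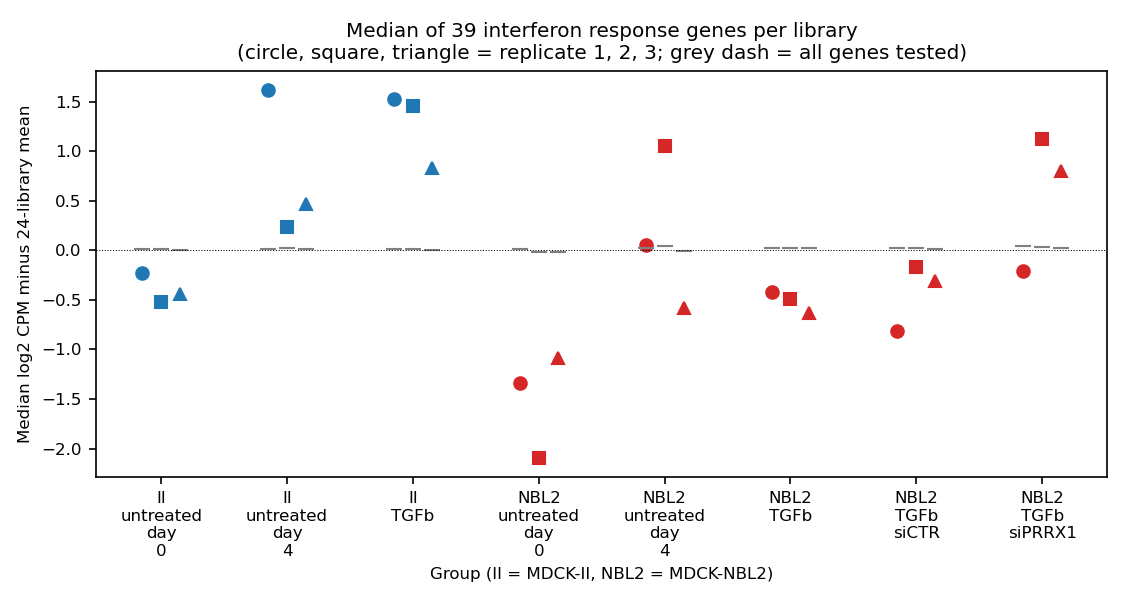
Median over the 39 tested interferon genes of log2 CPM minus the mean of the 24 libraries, for each library (vertical axis, log2 units) by group (horizontal axis). Circles, squares and triangles are replicates 1, 2 and 3, blue marks MDCK-II and red MDCK-NBL2, and grey dashes are the median of all genes tested. Untreated MDCK-NBL2 at day 4 ranged from -0.58 to 1.05 and siPRRX1 from -0.21 to 1.12, whereas MDCK-NBL2 with TGFb lay between -0.63 and -0.42.

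In both untreated day 4 groups libraries stood apart in the interferon genes. In MDCK-II, replicate 1 was above both other replicates in 35 of the 39 genes, against 43% of all genes tested, and IRF1, ISG20, GBP5 and IDO1 were the exceptions. In that library, the median of the 14 genes listed as targets of the inflammatory factor NF-kB was 1.24 log2 units below the other replicates. In MDCK-NBL2, replicate 2 was above both other replicates in 36 of the 39 genes, against 37.5% of all genes, with IRF1, PSMB8 and IDO1 as exceptions. It was also above all other MDCK-NBL2 libraries in 19 genes, against 6.42% of all genes. Replicate 3 of the same group was at least 2-fold below the other replicates in 23 of the 39 genes, against 12.7% of all genes. Whether the other features of these libraries had a part in their interferon gene levels was not tested.

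By group mean, 20 of the 39 tested genes were highest in MDCK-II with TGFb, 7 in untreated MDCK-II at day 4, 5 in siPRRX1 and 4 in untreated MDCK-NBL2 at day 4. The lowest group was MDCK-NBL2 at day 0 for 27 genes, MDCK-NBL2 with TGFb for 5 and siCTR for 4.

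**Figure D2:**
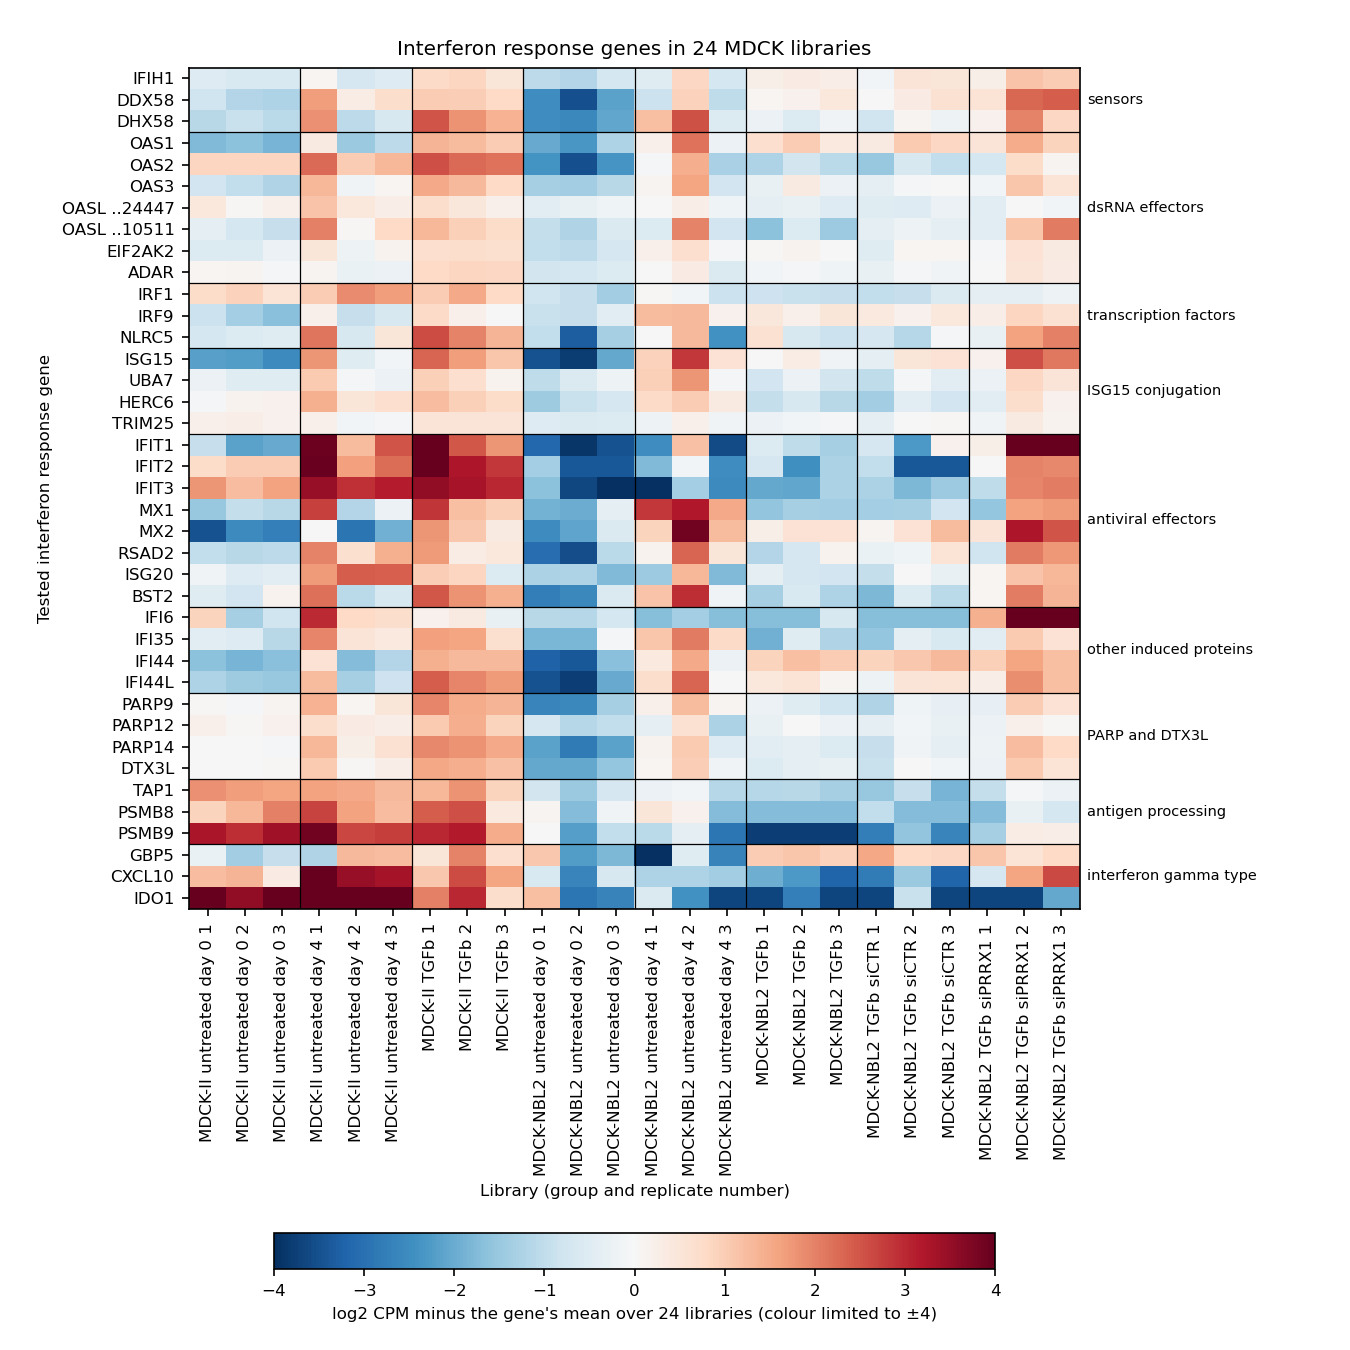
Level of the 39 tested interferon genes (rows, ordered by role) in the 24 libraries (columns, by group and replicate), as log2 CPM minus the gene's mean over the 24 libraries, with colours limited at 4 log2 units. MDCK-NBL2 at day 0 is the lowest group for 27 genes, and replicate 2 of untreated MDCK-NBL2 at day 4 and replicate 1 of untreated MDCK-II at day 4 stand above their replicates in 36 and 35 genes.

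At day 0 the interferon genes were lower in MDCK-NBL2 than in MDCK-II before any treatment. Of the 39 tested genes, 17 were lower in MDCK-NBL2 and 0 higher (43.6%, against 28.5% of all genes called, 13.8% lower and 14.8% higher). The median log2 difference, MDCK-NBL2 minus MDCK-II, was -1.17 over these genes and -0.04 over all genes. In 25 genes every MDCK-NBL2 library was below every MDCK-II library and in 1 above, against 30.3% and 25.4% of all genes. The antigen processing genes (3 of 3) and the PARP and DTX3L group (4 of 4) were all lower, as were 2 of 7 effectors of double-stranded RNA and 2 of 8 antiviral effectors. The antigen processing gene PSMB8, and IDO1, had at least 10 counts in all 3 libraries of a group only in MDCK-II. Their entry into the test thus rested at least in part on the subline where they were high.

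TAP1, the transporter that carries peptides to MHC class I molecules, stood at 68.9, 61.5 and 58.4 CPM in MDCK-II and at 11.5, 6.75 and 12.1 CPM in MDCK-NBL2. PSMB9, a catalytic subunit of the immunoproteasome, stood at 17.6, 14.2 and 19.3 CPM against 1.73, 0.265 and 0.808 CPM. IRF1, a transcription factor of interferon gamma and basal interferon gene expression, stood at 104, 117 and 91.5 CPM against 35.4, 32.8 and 23.7 CPM. None of these 3 genes overlapped between the sublines. The log2 difference was -2.66 ± 0.30 for TAP1 (adjusted p = 1.62e-06), -4.29 ± 0.67 for PSMB9 (adjusted p = 8.91e-05) and -1.76 ± 0.24 for IRF1 (adjusted p = 1.42e-05).

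OAS2, which makes the oligoadenylate that activates RNase L, was almost constant in MDCK-II at 100, 100 and 99.5 CPM and stood at 10.3, 4.63 and 10.5 CPM in MDCK-NBL2. PARP14, a mono-ADP-ribosyltransferase, stood at 44.2, 43.4 and 43 CPM against 9.91, 6.15 and 9.97 CPM. IFIT3, a partner of IFIT1 in binding viral RNA ends, stood at 7.18, 4.91 and 6.36 CPM against 0.554, 0.0331 and 0 CPM. Each of the 3 genes was lower in every MDCK-NBL2 library, by -3.60 ± 0.55 (OAS2, adjusted p = 5.14e-05), -2.35 ± 0.39 (PARP14, adjusted p = 0.000113) and -5 ± 0.89 on the log2 scale (IFIT3, adjusted p = 0.000236). The 11 other genes that were lower were TRIM25, DTX3L, IDO1, PARP9, ADAR, IFIT2, PARP12, HERC6, CXCL10, DDX58 and PSMB8. IDO1 was uneven at day 0 in MDCK-NBL2, with 3.88 CPM in replicate 1 against 0.0992 and 0.135 CPM, and so was GBP5, with 29.6 CPM against 2.81 and 3.91 CPM.

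From day 0 to day 4 without treatment, interferon genes rose in both sublines, and 0 of the tested genes fell in either. In MDCK-II 10 of 39 genes rose (25.6%, against 9.81% of all genes called, 5.76% higher and 4.05% lower), with a median log2 change of 1.31 against -0.00 over all genes, and in 19 genes every day 4 library was above every day 0 library, against 18.4% of all genes. In MDCK-NBL2 24 of 39 rose (61.5%, against 17.7% called, 12.4% higher and 5.26% lower), with a median of 1.93 against 0.06. In 22 genes of MDCK-NBL2 every day 4 library was above every day 0 library and in 1 below, against 12.1% and 8.92% of all genes. Whether the change over time differed between the sublines was not tested.

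In MDCK-II the genes that rose included ISG15 and 2 of the 3 interferon gamma type genes, IDO1 and CXCL10, while GBP5 was not called (1.61). ISG15, a ubiquitin-like protein that is conjugated to targets, went from 11.2, 10.8 and 8.64 CPM to 176, 36.1 and 47.6 CPM, a log2 change of 3.07 ± 0.71 (adjusted p = 0.0103). IDO1, which degrades tryptophan, went from 36.2, 20.3 and 28.6 CPM to 129, 297 and 289 CPM (3.07 ± 0.69, adjusted p = 0.00869), and CXCL10, a chemokine for T cells, from 2.83, 3.1 and 1.44 CPM to 22, 14 and 12.7 CPM (2.68 ± 0.63, adjusted p = 0.0111). All day 4 libraries lay above all day 0 libraries for these 3 genes, but replicate 1 was the highest for ISG15 and CXCL10 and the lowest for IDO1. IFIT1, which binds viral RNA ends, rose from 1.45, 0.55 and 0.6 CPM to 45.6, 7.05 and 16.9 CPM (4.74 ± 1.23, adjusted p = 0.02).

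The RNA sensor DDX58 (2.06 ± 0.50, adjusted p = 0.0138) and the exonuclease ISG20 (2.59 ± 0.59, adjusted p = 0.00945) also rose in MDCK-II, together with IRF1, RSAD2, OAS3 and IFI35. Leaving out replicate 1 of untreated MDCK-II at day 4 left 4 of the 39 genes called and a median of 0.46, with 4.81% of all genes called. ISG15 then had a log2 change of 2.02 (adjusted p = 0.0905), DDX58 1.57 (adjusted p = 0.0881) and IFIT1 3.75 (adjusted p = 0.101). Without replicate 1, 2 or 3 of day 0, 5, 2 and 2 genes were called (4.05%, 4.23% and 4.62% of all genes), and without replicate 2 of untreated MDCK-II at day 4, 17 were (10.7%). Without replicate 2 of untreated MDCK-NBL2 at day 4, which is in neither group, 17 were called too (16.5%). None of the 10 genes was called under the removal of each library in turn. In DESeq2's Wald test the adjusted p of IDO1 was 0.16.

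In MDCK-NBL2 the rise took in 3 of 3 sensors, 4 of 4 genes of ISG15 conjugation, 5 of 7 effectors of double-stranded RNA and 3 of 4 of the PARP and DTX3L group, but 0 of 3 antigen processing and 0 of 3 interferon gamma type genes. ISG15 went from 4.5, 3.54 and 12.3 CPM to 97.4, 362 and 77.3 CPM (4.84 ± 0.78, adjusted p = 0.00267). PARP14 went from 9.91, 6.15 and 9.97 CPM to 48.9, 92 and 30.9 CPM (2.76 ± 0.39, adjusted p = 0.00188), and DTX3L, the ubiquitin ligase that pairs with PARP9, from 8.52, 8.53 and 12.1 CPM to 37.6, 71.1 and 32.1 CPM (2.30 ± 0.35, adjusted p = 0.00205). MX1, a GTPase that traps viral nucleocapsids, went from 6.37, 5.98 and 18.3 CPM to 174, 221 and 68.4 CPM. In each of these genes the lowest day 4 library was above the highest day 0 library. PARP9 (2.81 ± 0.45, adjusted p = 0.00265), IFI44 (3.36 ± 0.54, adjusted p = 0.00267) and IFI44L (4.49 ± 0.73, adjusted p = 0.00267) rose as well.

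Without replicate 2 of untreated MDCK-NBL2 at day 4, 17 of the 39 genes rose and 1 fell in this comparison (14.6% of all genes called), with a median of 1.11. The gene that fell was GBP5, an interferon gamma-induced GTPase (-3.55, adjusted p = 0.0333), whose day 0 replicate 1 was high. IRF1, OAS3, IFIH1, UBA7, ADAR, TRIM25 and BST2 were no longer called. In all, 16 of the 24 calls were kept under the removal of each library in turn, among them ISG15, PARP14, DTX3L and PARP9. A fit of only the groups compared, however, called 0 of the 32 interferon genes it could test and 0 of all genes. In that fit 24 of the 32 had an unadjusted p under 0.05 by edgeR, so the calls rest on the spread estimated over all groups.

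TGFb in MDCK-II raised 7 and lowered 3 of the 39 tested genes, against its untreated day 4 cells (25.6%, against 21.1% of all genes called, 11.8% higher and 9.27% lower). The genes that rose were the sensor IFIH1, the double-stranded RNA effectors ADAR and OAS1, the ubiquitin ligase TRIM25, MX2, IFI44 and IFI44L, and those that fell were IDO1, CXCL10 and ISG20. The median change was 0.52 against -0.03 over all genes, with a range from -4.85 to 2.36. In 11 genes every TGFb library was above every untreated library, and in 4 every one was below, against 20.3% and 19.5% of all genes.

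IDO1 fell from 129, 297 and 289 CPM to 6.95, 14 and 2.68 CPM, and no library of either group overlapped (-4.85 ± 0.76, adjusted p = 0.000341). CXCL10 went from 22, 14 and 12.7 CPM to 2.53, 7.52 and 3.68 CPM (-1.79 ± 0.60, adjusted p = 0.0395). ISG20 went from 20.7, 33.9 and 33.2 CPM to 12.4, 11.5 and 4.24 CPM (-1.62 ± 0.56, adjusted p = 0.0454). These 3 genes had also risen from day 0 to day 4, and that comparison shares the untreated day 4 libraries with this one. At day 0, CXCL10 had stood at 1.44 to 3.1 CPM and IDO1 at 20.3 to 36.2 CPM, which is above every TGFb library for IDO1.

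ADAR, the editing enzyme that converts adenosine to inosine in double-stranded RNA, went from 284, 217 and 221 CPM to 454, 477 and 462 CPM (0.95 ± 0.17, adjusted p = 0.000996). TRIM25, a ubiquitin ligase that acts on the sensor RIG-I, encoded by DDX58, went from 250, 202 and 205 CPM to 316, 313 and 312 CPM (0.52 ± 0.13, adjusted p = 0.012). For both genes the TGFb libraries lay close together and above all untreated libraries.

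OAS1 (1.70 ± 0.51, adjusted p = 0.0243), IFI44 (1.77 ± 0.50, adjusted p = 0.0175), IFIH1 (1.03 ± 0.31, adjusted p = 0.025), IFI44L (1.89 ± 0.61, adjusted p = 0.0342) and MX2 (2.36 ± 0.82, adjusted p = 0.0474) rose too, and in these 5 genes replicate 1 was the highest of the untreated libraries. IFI44, an induced protein of uncertain function, stood untreated at 120, 24.1 and 35.6 CPM and with TGFb at 215, 200 and 198 CPM. MX1, which was not called, stood at 160, 10.6 and 20.7 CPM untreated and at 177, 55.6 and 46.5 CPM with TGFb, so its groups overlapped. Without replicate 1 of untreated MDCK-II at day 4, 19 of the 39 genes were called (21.4% of all genes). Without replicate 2 or 3 of that group ADAR and IDO1 alone were called (14% and 13.3% of all genes). Without replicate 1, 2 or 3 of the TGFb group, 6, 5 and 6 genes were called (17.7%, 9.99% and 12% of all genes). The replicate numbers paired the libraries in this comparison, and a fit of only these groups with the number as a block called 20 genes, 17 higher and 3 lower, and 28.4% of all genes it tested. That fit was chosen after the pairing was seen in these data, so its count is not an independent check.

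TGFb in MDCK-NBL2 lowered 15 of the 39 tested genes and raised 1, GBP5 (41%, against 44.3% of all genes called, 21% higher and 23.4% lower). The share called was thus close to that of all genes, whereas the median change was -0.81 against -0.04. In 12 genes every TGFb library was below every untreated library and in 1 above, against 21% and 22% of all genes. The genes that fell were 4 of 8 antiviral effectors, 3 of 4 genes of ISG15 conjugation, 2 of 3 antigen processing genes, 2 of 7 double-stranded RNA effectors, and DHX58, IRF1, IFI35 and PARP9. In the same comparison 22 of 22 cell cycle genes fell.

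MX1 went from 174, 221 and 68.4 CPM to 8.06, 9.5 and 9.17 CPM (-4.11 ± 0.95, adjusted p = 0.00192). HERC6, a ubiquitin ligase of the ISG15 pathway in some mammals, went from 124, 148 and 94.3 CPM to 37.8, 46.9 and 34.1 CPM (-1.63 ± 0.30, adjusted p = 0.000356). UBA7, the enzyme that activates ISG15, went from 71.4, 128 and 35.5 CPM to 21.7, 31.9 and 21.9 CPM (-1.64 ± 0.42, adjusted p = 0.00402). In all 3 genes the TGFb libraries lay together below the lowest untreated library.

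IFI35, an interferon-induced leucine zipper protein, fell by 2.57 ± 0.60 (adjusted p = 0.00228) and BST2, which tethers budding virus to the cell surface, by 2.88 ± 0.87 (adjusted p = 0.0115). PSMB9 had 54 counts over the untreated libraries and 0 counts over the TGFb libraries. It was thus at least 5.98-fold lower, taking 3 counts for the whole group as the floor (adjusted p = 0.0276). GBP5 rose from 0.528, 9.8 and 2.07 CPM to 28.6, 30.5 and 26.3 CPM (2.71 ± 0.87, adjusted p = 0.0164).

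These calls rested in part on replicate 2 of the untreated group. OAS2, for example, stood untreated at 52.8, 151 and 22.4 CPM and with TGFb at 23.2, 33 and 25.7 CPM, and its fall of 1.47 ± 0.51 (adjusted p = 0.0237) was 0.48 without that library (adjusted p = 0.359). ISG15 stood at 97.4, 362 and 77.3 CPM untreated and at 50.6, 63.6 and 46.3 CPM with TGFb. Its log2 change was -1.74 with all libraries (adjusted p = 0.0391) and -0.71 without replicate 2 (adjusted p = 0.35).

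Without that library 8 genes were called, 4 in each direction (54.8% of all genes called), with a median of -0.38, and 5 of the 8 were among the 16. MX1 (-3.77), IFI35 (-2.07), HERC6 (-1.46) and UBA7 (-1.09) were still lower, and GBP5 (4.77) was still higher. The sensors IFIH1 (0.85, adjusted p = 0.00727) and DDX58 (1.16, adjusted p = 0.0362) were then called higher. So was PARP12, which changed sign from -0.03 to 0.58 (adjusted p = 0.0371). Without replicate 1, 2 or 3 of the TGFb group 7 genes were called in each case (35.3%, 37.1% and 36.5% of all genes). HERC6, IFI35, MX1 and UBA7 were the 4 genes called under the removal of each library in turn. A fit of only the groups compared called 3 of the 31 interferon genes it could test, against 4.48% of all genes.

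The direct test of whether the response to TGFb differed between the sublines, MDCK-NBL2 minus MDCK-II, called 8 of the 39 tested genes, all 8 with a negative difference (20.5%, against 5.7% of all genes called, 3.18% negative and 2.52% positive). The median difference was -1.38 against -0.05 over all genes, and 33 of the 39 differences were negative. ADAR changed by 0.95 ± 0.17 in MDCK-II and stood at 262, 325 and 175 CPM untreated and 244, 249 and 231 CPM with TGFb in MDCK-NBL2, a difference of -1.02 ± 0.24 (adjusted p = 0.0183). HERC6, at 195, 103 and 117 CPM untreated and 174, 141 and 122 CPM with TGFb in MDCK-II, differed by -1.70 ± 0.41 (adjusted p = 0.0227). The other 6 were MX2 (-4.53 ± 1.15, adjusted p = 0.0268), MX1 (-4.65 ± 1.23, adjusted p = 0.0329), DTX3L (-1.69 ± 0.46, adjusted p = 0.0375), IFI35 (-2.78 ± 0.79, adjusted p = 0.0449), PARP14 (-1.77 ± 0.51, adjusted p = 0.0469) and PARP9 (-2.00 ± 0.58, adjusted p = 0.047).

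DTX3L showed the pattern per library: in MDCK-II it stood at 74, 36.9 and 42.5 CPM untreated and 104, 97.2 and 81.1 CPM with TGFb, and in MDCK-NBL2 at 37.6, 71.1 and 32.1 CPM untreated and 24.2, 27.5 and 28.9 CPM with TGFb. Without replicate 2 of untreated MDCK-NBL2 at day 4, 8 genes were again called, 6 negative and 2 positive (21.1% of all genes called), with a median of -0.69. PARP9 (-1.52, adjusted p = 0.0528) and PARP14 (-1.26, adjusted p = 0.0577) were then lost, and ISG20 (2.63, adjusted p = 0.00377) and GBP5 (4.35, adjusted p = 0.0192) were called with a positive difference. The count was 18 without replicate 1 of untreated MDCK-II (6.91% of all genes called) and 19 without replicate 3 of untreated MDCK-NBL2 (8.31%). It was 1 without replicate 2 (3.59%) or 3 (2.74%) of untreated MDCK-II, replicate 1 of MDCK-II with TGFb (3.17%), or replicate 1 (2.44%) or 3 (3.22%) of MDCK-NBL2 with TGFb. It was 4 without replicate 2 of MDCK-II with TGFb (2.81%) and 2 without replicate 2 of MDCK-NBL2 with TGFb (3.25%). ADAR was the 1 gene called under the removal of each library in turn. A fit of only the groups compared called 0 of the 38 interferon genes it could test, against 0.395% of all genes.

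**Figure D3:**
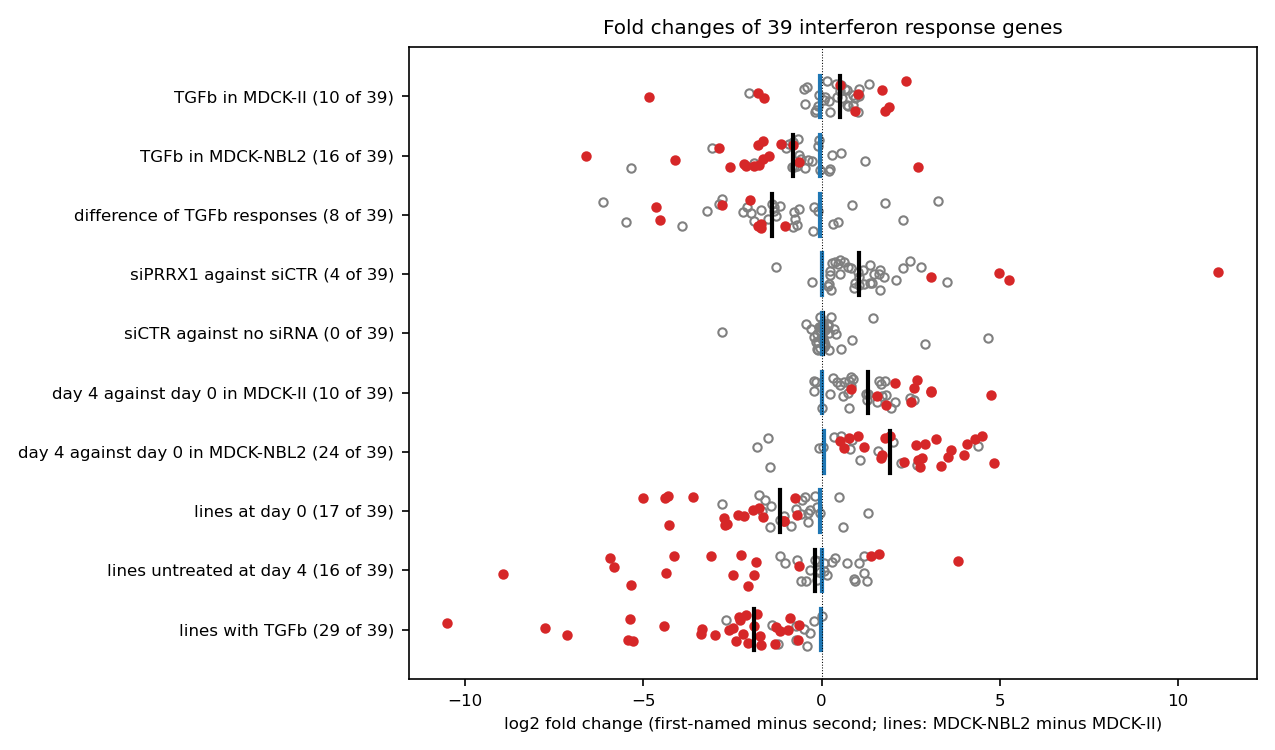
Log2 fold change of the 39 tested interferon genes (horizontal axis) in the 10 comparisons (vertical axis), with filled red points for genes called at an adjusted p under 0.05 and open grey points for the others. Black bars are the median of the tested interferon genes and blue bars the median of all genes. The median of the interferon genes was 1.93 from day 0 to day 4 in MDCK-NBL2, -0.81 with TGFb in MDCK-NBL2 and 0.52 with TGFb in MDCK-II.

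At day 4 the called genes differed between the sublines in both directions without TGFb and were all lower in MDCK-NBL2 with it. Untreated, 13 of the 39 tested genes were lower and 3 higher in MDCK-NBL2 than in MDCK-II (41%, against 36.3% of all genes called, 15.3% lower and 21% higher), with a median of -0.18 against 0.02. Without replicate 1 of untreated MDCK-II, the library that stood apart there, 10 were lower and 10 higher (39.1% of all genes called) and the median was 0.21. With TGFb, 29 were lower and 0 higher (74.4%, against 45.9% called, 22.3% lower and 23.7% higher), with a median of -1.88 against -0.01. With TGFb every MDCK-NBL2 library was below every MDCK-II library in 34 of the 39 genes, against 31.2% of all genes, and untreated in 12 genes, with 1 gene the other way, against 14.4% and 17.1%. These comparisons use the same libraries as the comparisons within each subline.

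IDO1 differed most between the untreated sublines, at 129, 297 and 289 CPM in MDCK-II and 1.02, 0.185 and 0 CPM in MDCK-NBL2 (-8.92 ± 0.98, adjusted p = 7.92e-07). CXCL10 stood at 22, 14 and 12.7 CPM against 0.406, 0.407 and 0.344 CPM (-5.34 ± 0.75, adjusted p = 1.66e-05). IFIT3 stood at 23.8, 15.9 and 18.7 CPM against 0, 0.702 and 0.229 CPM (-5.81 ± 0.78, adjusted p = 8.94e-06). IRF1 (-1.83 ± 0.24, adjusted p = 5.87e-06), TAP1 (-1.90 ± 0.29, adjusted p = 3.31e-05) and PSMB9 (-4.35 ± 0.65, adjusted p = 4.3e-05) were lower as well, as at day 0. All 3 antigen processing and all 3 interferon gamma type genes were lower in untreated MDCK-NBL2, though PSMB8 missed the threshold without replicate 2 of that group (-2.33, adjusted p = 0.0661). PSMB8 and IDO1 entered the test at least in part through the MDCK-II libraries, where they were high.

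The 3 genes that were higher in untreated MDCK-NBL2 were IRF9, the DNA-binding partner of the STAT factors (1.40 ± 0.30, adjusted p = 0.00115), MX2 (3.82 ± 0.85, adjusted p = 0.00154) and OAS1 (1.61 ± 0.51, adjusted p = 0.018). IRF9 stood at 14.3, 6.49 and 7.96 CPM in MDCK-II and 30.2, 30.9 and 14.1 CPM in MDCK-NBL2, and only the lowest MDCK-NBL2 library overlapped. OAS1 stood at 134, 37.4 and 50.3 CPM against 120, 466 and 87 CPM, and its difference without replicate 2 of MDCK-NBL2 was 0.49 (adjusted p = 0.384). Without that library 17 genes were lower and 2 higher (34.1% of all genes called), with a median of -0.84. In a fit of only these groups 8 genes were lower and 0 higher (10.4% of all genes called).

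With TGFb, IRF1 stood at 127, 179 and 109 CPM in MDCK-II and 34.7, 33.5 and 32.6 CPM in MDCK-NBL2 (-2.05 ± 0.24, adjusted p = 2.29e-06). TAP1 stood at 48.9, 67 and 36 CPM against 8.63, 8.89 and 7.52 CPM (-2.60 ± 0.31, adjusted p = 2.32e-06). PSMB9 stood at 14.8, 16.4 and 5.02 CPM against 0 in all 3 libraries, at least 93-fold lower by the floor of 3 counts over the group (adjusted p = 2.67e-05). PSMB8, the neighbouring immunoproteasome subunit, was at least 14-fold lower on the same basis. Its entry into the test rested at least in part on the MDCK-II libraries.

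OAS2 stood at 327, 267 and 249 CPM in MDCK-II against 23.2, 33 and 25.7 CPM (-3.36 ± 0.54, adjusted p = 5.78e-05). HERC6 (-1.88 ± 0.30, adjusted p = 6.19e-05) and IFIT3 (-5.36 ± 0.84, adjusted p = 5.06e-05) were lower too. Of the roles, 4 of 4 genes of ISG15 conjugation, 4 of 4 of the PARP and DTX3L group, 3 of 3 antigen processing genes and 6 of 7 double-stranded RNA effectors were lower in MDCK-NBL2. The 10 genes not called were RSAD2, ISG20, DDX58, IFIH1, IFI6, OAS1, MX2, IFI44, GBP5 and IRF9. IFI44, though not called (-0.31), was lower in every MDCK-NBL2 library, at 215, 200 and 198 CPM in MDCK-II and 148, 184 and 162 CPM in MDCK-NBL2. In all, 22 of the 29 calls were kept under the removal of each library in turn.

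**Figure D4:**
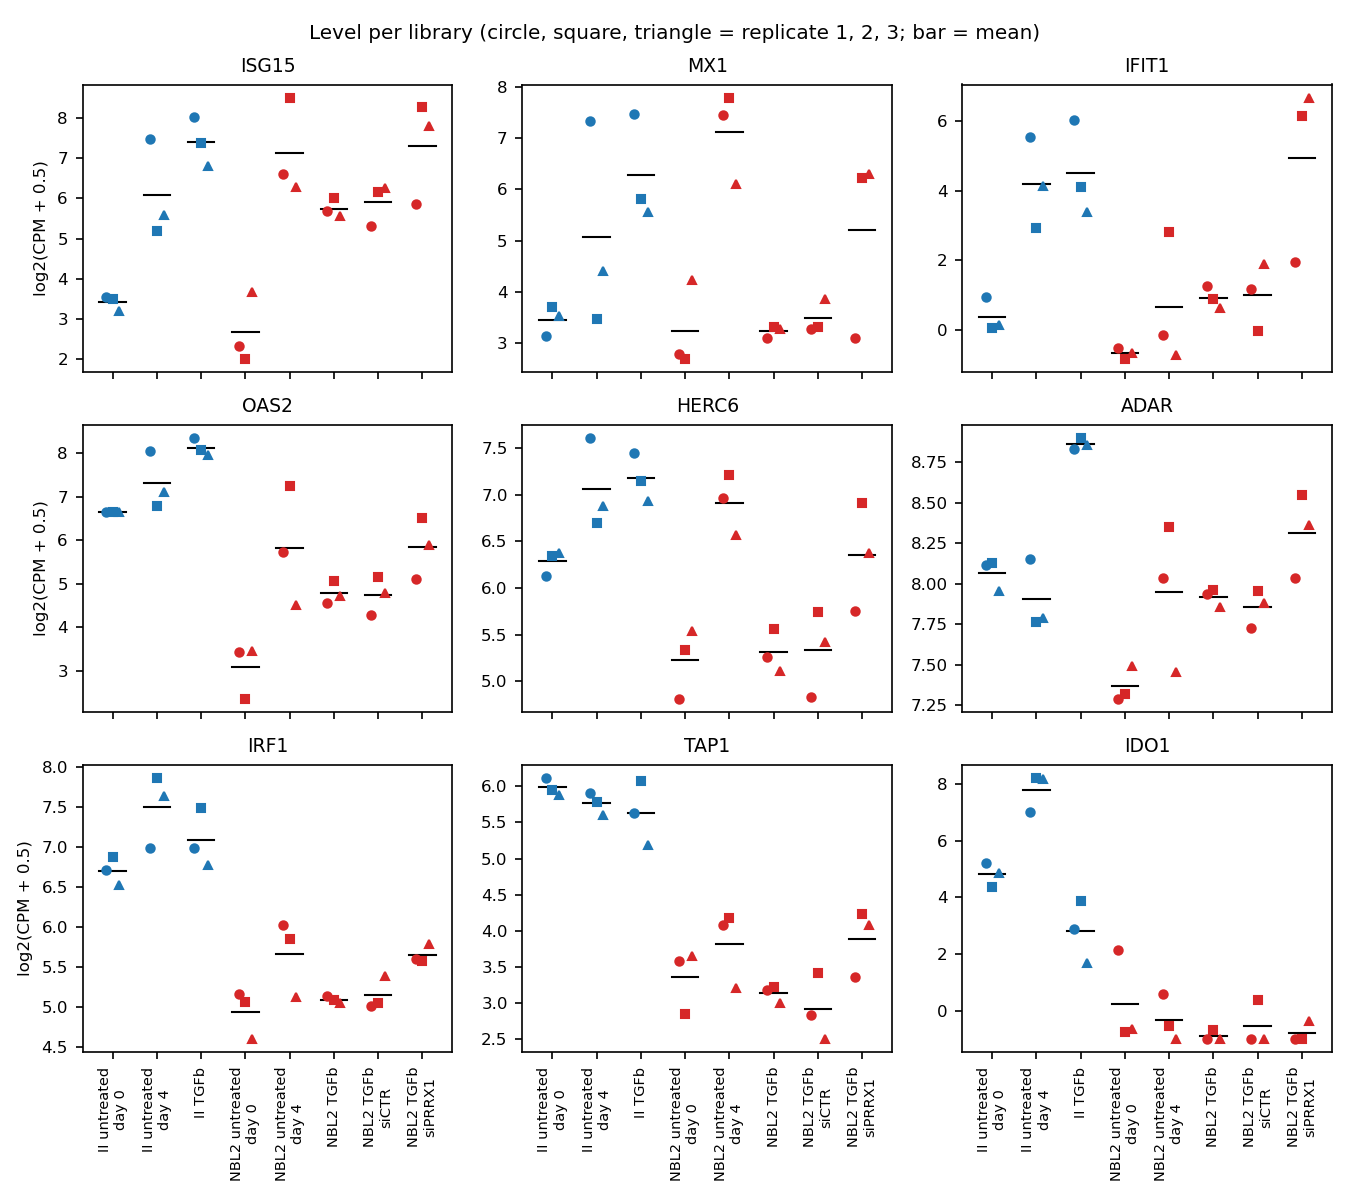
Level of 9 interferon genes in the 8 groups, as log2(CPM + 0.5) on the vertical axis, with a point per library and a bar at the group mean. IDO1 spans 2.68 to 297 CPM in MDCK-II at day 4, with and without TGFb, and at most 1.02 CPM in the MDCK-NBL2 groups at day 4, siRNA groups included, whereas the ADAR libraries of MDCK-II with TGFb lie at 454 to 477 CPM, above all other libraries.

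In the knockdown the targeted gene, PRRX1, stood at 33.9, 7.35 and 3.88 CPM in siCTR and at 1.11, 0.339 and 0 CPM in siPRRX1, with 22, 3 and 0 counts. The control siRNA did not move the interferon genes detectably: against TGFb-treated MDCK-NBL2 without siRNA, 0 of 39 tested genes were called by edgeR (0% of all genes called). In 2 genes every siCTR library was above every library without siRNA and in 0 below, against 5.17% and 4.86% of all genes. The median was 0.05 against 0.01, 0 of the 39 had an unadjusted p under 0.05 by edgeR and 1 by DESeq2, and 212 of all genes did by edgeR and 176 by DESeq2. Within the library number series the median of this comparison was -0.29 in the earlier and 0.25 in the later numbers.

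Against siCTR, siPRRX1 raised 4 of the 39 tested genes and lowered 0 (10.3%, against 2% of all genes called, 0.81% higher and 1.19% lower). The 4 were IFI6, IFIT1, IFIT3 and CXCL10. The median change was 1.05 against 0.00 over all genes, 37 of the 39 changes were positive, and 25 had an unadjusted p under 0.05. In 12 genes every siPRRX1 library was above every siCTR library, against 15.3% of all genes.

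IFIT1 stood at 1.77, 0.479 and 3.24 CPM in siCTR, 3.38, 70.3 and 101 CPM in siPRRX1, and 1.92, 1.34 and 1.05 CPM with TGFb and no siRNA (4.99 ± 1.20, adjusted p = 0.0338). IFIT3 stood at 0.751, 0.479 and 0.647 CPM in siCTR and 0.908, 8.13 and 8.76 CPM in siPRRX1 (3.07 ± 0.79, adjusted p = 0.0499). Replicates 2 and 3 of siPRRX1 were far above siCTR, and replicate 1 only just. Both calls were lost without any 1 of the 3 siCTR libraries or replicate 2 or 3 of siPRRX1, with the highest adjusted p for both without replicate 3 of siPRRX1 (4.32, adjusted p = 0.176 for IFIT1 and 2.65, adjusted p = 0.239 for IFIT3).

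IFI6, a mitochondrial and endoplasmic reticulum protein induced by type I interferon, had 0 counts over the siCTR libraries and 464 over the siPRRX1 libraries, at 1.06, 22.6 and 34.3 CPM. It was at least 152-fold higher, by the floor of 3 counts over the group (adjusted p = 0.00312), and was the 1 gene called under the removal of each library in turn. IFI6 had at least 10 counts in all 3 libraries of siPRRX1 and of no other group, though some MDCK-II libraries reached 10 counts too. The filter asks for a minimum scaled to depth in any 3 libraries, of whatever group. The entry of IFI6 into the test thus rested at least in part on the group where it was high. IFI6 was low in every other group, at 3.38 CPM or less. CXCL10 had 3 counts over siCTR and 100 over siPRRX1, at 0.656, 3.62 and 7.77 CPM in siPRRX1. Its ratio was 32.7, with a 95% exact interval of 10.9 to 161 that covers counting error only (adjusted p = 0.0139). The CXCL10 call was lost without replicate 1 (4.47, adjusted p = 0.137) or 3 (4.98, adjusted p = 0.0667) of siCTR or replicate 3 of siPRRX1 (4.34, adjusted p = 0.0981).

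Other genes were also higher in replicates 2 and 3 of siPRRX1 than in every siCTR library without being called. MX1 stood at 9.23, 9.42 and 14.1 CPM in siCTR and 8.07, 74.3 and 78 CPM in siPRRX1 (2.29, adjusted p = 0.213). ISG15 stood at 39.1, 70.9 and 76.4 CPM against 57.4, 305 and 221 CPM (1.65, adjusted p = 0.234). HERC6 stood at 28.1, 53.2 and 42.5 CPM against 53.6, 120 and 82.7 CPM (1.05, adjusted p = 0.0731). TAP1 stood at 6.67, 10.2 and 5.18 CPM against 9.84, 18.3 and 16.4 CPM, and IDO1 and GBP5 were the 2 genes with a negative change, at -1.28 and -0.28.

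Replicate 2 of siPRRX1 lay above all siCTR libraries in 37 of the 39 genes and replicate 3 in 35, against 31.5% and 32.6% of all genes. Replicate 1 did so in 12 genes, against 28.5%, and lay inside the range of siCTR in 24, against 43.8% of all genes. By replicate number, the median of siPRRX1 minus siCTR was 0.47, 1.32 and 1.11 log2 units. At least 2-fold higher were 6, 25 and 22 of the 39 genes, against 1.8%, 3.88% and 5.1% of all genes. Without replicate 1 of siPRRX1, 9 genes were called (1.86% of all genes), and also 9 without replicate 2 of untreated MDCK-NBL2 at day 4 (5.21%), which is in neither siRNA group. Without replicate 1, 2 or 3 of siCTR, 1, 2 and 1 were called (0.779%, 1.09% and 0.588% of all genes), and without replicate 2 or 3 of siPRRX1, 2 and 1 (0.895% and 0.424%). Replicate 1 is also the only replicate of either siRNA group with an earlier library number. Within the later numbers, with 2 libraries a group, the median was 1.23 and 37 of 39 genes were higher. Within the earlier numbers, with 1 library a group, it was 0.47 and 32 were higher.

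The replicate numbers paired the siRNA libraries, and a fit of only these groups with the number as a block called 23 of the 30 interferon genes it could test. That fit was chosen after the pairing was seen in these data, so its count is not an independent check. That fit called 22.5% of all genes it tested. Of the 4 genes called with all libraries, 1 was among the 23, and IFI6 and CXCL10 were not among those 30. A relation of the residual PRRX1 level to the interferon genes across these libraries was not tested.

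**Figure D5:**
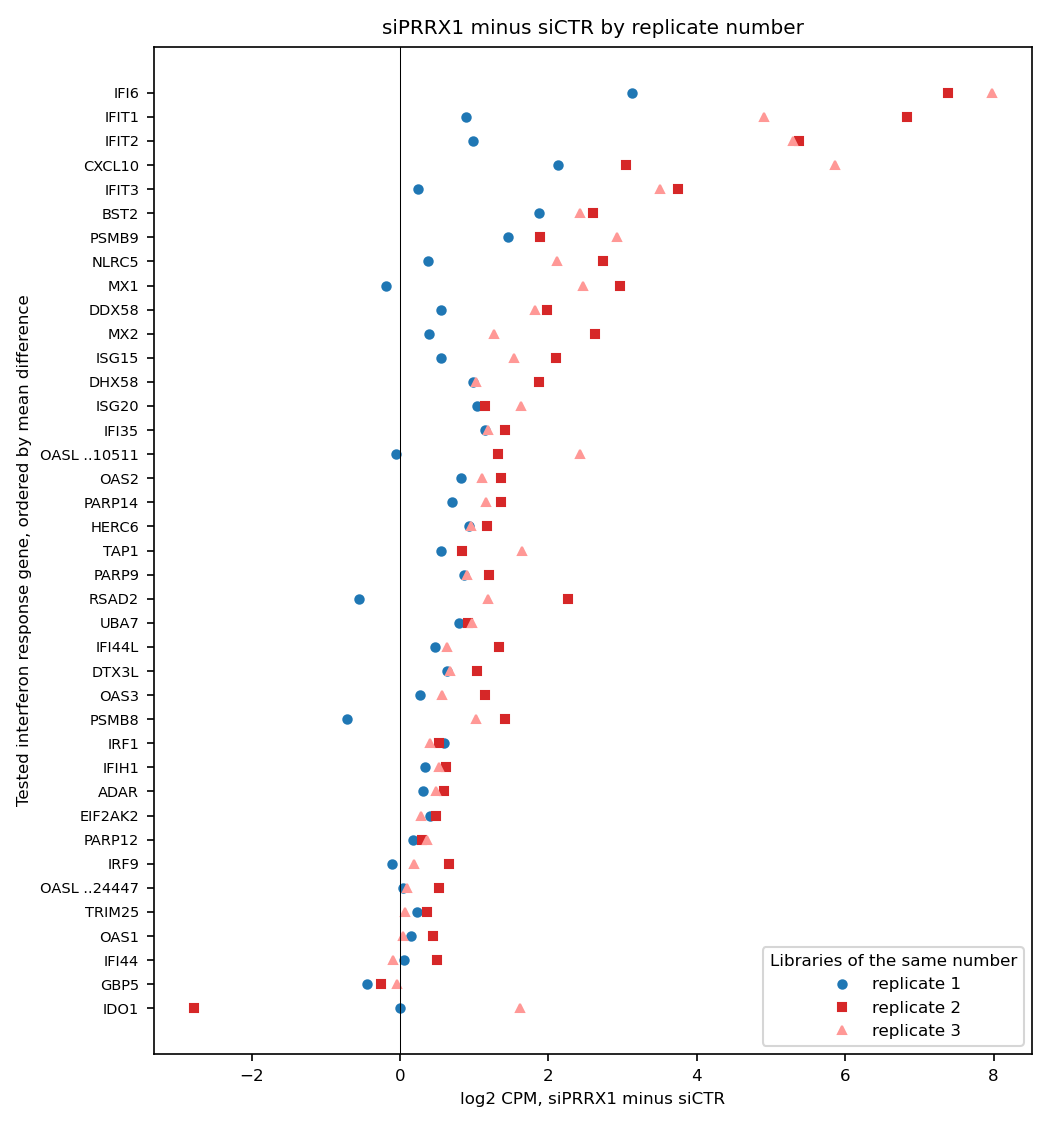
Difference in log2 CPM between siPRRX1 and siCTR for each tested interferon gene (ordered by mean difference), by replicate number: blue circles for 1, red squares for 2 and pink triangles for 3. Replicates 2 and 3, with medians of 1.32 and 1.11, lie above replicate 1, with a median of 0.47.

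The genes upstream and beside this set were read from lists of pathway genes. Of 24 interferon ligand genes listed, 3 were found and 2 tested, IFNE and IFNK, the epithelial type I interferons, while IFNG had 0 counts in all libraries. Both ligands rose with TGFb in MDCK-II. IFNK stood there at 0.36, 0.662 and 0.693 CPM untreated and at 14.1, 20.9 and 24.9 CPM with TGFb (5.09 ± 0.85, adjusted p = 0.000615), and IFNE at 5.04, 2.25 and 2.54 CPM against 7.04, 11.5 and 11.3 CPM (1.62 ± 0.43, adjusted p = 0.0123). For both, every TGFb library was above every untreated library. In MDCK-NBL2, IFNK stood at 0.366, 5.73 and 0.115 CPM untreated and 2.88, 2.44 and 2.1 CPM with TGFb, and the response differed between sublines by -4.98 ± 1.14 (adjusted p = 0.0166). It stood at 1.5, 2.08 and 3.56 CPM in siCTR and at 3.13, 8.36 and 4.24 CPM in siPRRX1, and neither ligand was called in that comparison by edgeR, nor had an unadjusted p under 0.05.

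Of the 7 receptor, JAK and STAT genes tested, 2 rose and 1 fell with TGFb in MDCK-II, and 2 rose and 1 fell in MDCK-NBL2, where 21.1% and 44.3% of all genes were called. IFNLR1, the receptor chain specific to type III interferon, fell by 1.51 ± 0.35 in MDCK-II (adjusted p = 0.00591). Among 11 adaptors and kinases of nucleic acid sensing, 1 rose and 0 fell with TGFb in MDCK-II, and 3 rose and 2 fell in MDCK-NBL2, against the same shares of all genes. The endosomal RNA receptor TLR3 rose in MDCK-II (1.37 ± 0.31, adjusted p = 0.00527) and the adaptor MYD88 fell in MDCK-NBL2 (-0.95 ± 0.15, adjusted p = 0.000111). From day 0 to day 4, MAVS, the mitochondrial adaptor of the RNA sensors, rose in MDCK-II (1.56 ± 0.32, adjusted p = 0.00447) and MDCK-NBL2 (1.16 ± 0.31, adjusted p = 0.0174).

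Of 11 feedback inhibitors tested, 3 rose and 0 fell from day 0 to day 4 in MDCK-NBL2, against 17.7% of all genes called. In MDCK-II 0 were called by edgeR, against 9.81% of all genes, and 2 had an unadjusted p under 0.05. SOCS3, an inhibitor of JAK signalling, rose in MDCK-NBL2 over time (2.29 ± 0.42, adjusted p = 0.00378) and was lower with TGFb (-1.56 ± 0.43, adjusted p = 0.00639). With siPRRX1, 0 feedback inhibitors were called by edgeR (4 at an unadjusted p under 0.05) and 0 receptor, JAK and STAT genes (0 at an unadjusted p under 0.05), against 2% of all genes called. The adaptor TRAF3 fell by 0.62 ± 0.14 (adjusted p = 0.0217).

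A further 28 interferon-induced genes outside the set were tested. Both this list and the set were chosen with earlier results of these data known, so the list is not an independent check. From day 0 to day 4, 5 rose and 0 fell in MDCK-II and 15 rose and 1 fell in MDCK-NBL2, with medians of 0.62 and 0.65. Of all genes, 9.81% and 17.7% were called in these 2 comparisons. With TGFb, 7 rose and 2 fell in MDCK-II (median 0.19), where 21.1% of all genes were called. In MDCK-NBL2, 1 rose and 8 fell (median -0.42), where 44.3% of all genes were called. The difference between the sublines in the TGFb response was called for 5, all negative, against 5.7% of all genes, and its median was -0.66. With siPRRX1, 0 of the 28 were called by edgeR, against 2% of all genes, 10 had an unadjusted p under 0.05, and the median was 0.36. Of 15 antigen presentation genes, 10 were lower and 0 higher in MDCK-NBL2 than in MDCK-II at day 0, 10 lower and 2 higher untreated at day 4, and 11 lower and 0 higher with TGFb, against 28.5%, 36.3% and 45.9% of all genes called.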

How the data were processed

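Stranded mRNA libraries of MDCK cells were used, 24 in 8 groups of 3, in 1 table of gene counts deposited by the authors. The submitters' processing notes name STAR 2.5.3a, RSEM 1.3.0, FastQC and the genome build CanFam3.1. The sources used here give neither their settings nor the annotation. Groups came from the titles in the labels. The interferon genes and all other lists were chosen with earlier results of these data known. Genes to be named were, for each comparison, the up to 6 called members with the smallest adjusted p in each direction, with others named in lists or as chosen later.

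Genes were kept with edgeR's filterByExpr (minimum count 10, minimum total 15), which left 12466 of 32704, scaled by TMM and fitted with edgeR 4.0.16 (R 4.3.3) in 1 quasi-likelihood model of all 24 libraries with a mean per group (16 residual degrees of freedom). P-values were adjusted over all genes and called under 0.05. Standard errors are the fold change over the square root of F, and fold changes use a prior count of 0.125. Log2 CPM came from edgeR with a prior count of 2. A member could pass the filter through the group where it was high. Depth was 6134929 to 27567296 counts per library, and intervals and floors cover counting error only.

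Same-numbered libraries were checked for pairing by the correlation of their deviations from the group means. Every pair exceeded 0.1 only for TGFb in MDCK-II (0.42, 0.25 and 0.30) and siPRRX1 against siCTR (0.34, 0.19 and 0.16), so the pairing comes from the data and not from the labels. Alternatives were DESeq2 1.42.0, other scaling, no filter, only the groups compared, a replicate block, a term for the series of library numbers, and leaving out each library. No sequences or coordinates are used here, and 1 gene of the pathway lists is not reported here.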

Additional observations from a re-analysis of the deposited data

Results flagged for a closer look

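The edgeR interaction test of the response to TGFb between the sublines (MDCK-NBL2 minus MDCK-II) called 8 interferon genes. The log2 differences were -1.02 for ADAR, -1.70 for HERC6, -4.53 for MX2, -4.65 for MX1, -1.69 for DTX3L, -2.78 for IFI35, -1.77 for PARP14 and -2.00 for PARP9. The test sets 4 groups against each other, among them both untreated day 4 groups, each of which held a library that stood apart. Of the 8 genes, ADAR alone was called under the removal of each library in turn. A fit of only the groups compared called 0 of 38 interferon genes, and the replicate block left 5. With the library number series as a term 13 were called, and by DESeq2's Wald test 18.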

How the results depend on the processing

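Of 62 counts of called interferon genes under alternatives other than leaving out a single library, 51 were within 1.5 times the reported count. Among these alternatives, the fits of only the groups compared leave out the libraries of the other groups. The exceptions follow, with all-gene counts where these moved. With only the groups compared, TGFb in MDCK-NBL2 called 3 interferon genes of 31 tested (510 of all genes), the difference of TGFb responses 0 (19 of 38 at an unadjusted p under 0.05 by edgeR, and 48 of all genes), day 4 against day 0 in MDCK-NBL2 0 (24 of 32 at an unadjusted p under 0.05, and 0 of all genes with 1614 at an unadjusted p), the untreated sublines at day 4 8 (1267 of all genes), and siPRRX1 1159 of all genes. DESeq2's Wald test called 18 interferon genes and 1188 of all genes for the difference of responses, and 10 and 472 for siPRRX1. Without the filter siPRRX1 called 163 of all genes. With the library number series as a term the difference called 13 and siPRRX1 2. With the replicate block and only the groups compared, TGFb in MDCK-II called 20, and siPRRX1 called 23 (2528 of all genes). These block fits were not planned and were run only where the libraries were seen to pair. The replicate block in the fit of all libraries left 5 calls for the difference, and other counts of interferon genes under it were within 1.5 times.

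Leaving out each library in turn gave 2 to 19 interferon genes for TGFb in MDCK-II (1257 to 3862 of all genes), 7 to 18 for TGFb in MDCK-NBL2 (4457 to 6890), 1 to 19 for the difference (311 to 2653), 1 to 9 for siPRRX1 (54 to 655), 0 to 0 for siCTR, 2 to 17 for day 4 against day 0 in MDCK-II (509 to 2075) and 16 to 30 in MDCK-NBL2 (729 to 5324), and, between the sublines, 12 to 20 at day 0 (2691 to 4271), 14 to 20 untreated at day 4 (3699 to 5998) and 22 to 30 with TGFb (4739 to 6392). PARP12 with TGFb in MDCK-NBL2 reversed to 0.58 without replicate 2 of the untreated group. The cause was not tested. The removal of that library was chosen after seeing the data. The motif search in promoters and its longer motif were not run. With 3 libraries a group, genes of few counts such as IFI6, PSMB8 and IDO1 in MDCK-NBL2 are limited by depth.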

Other observations

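Of the 40 symbols found, 39 matched RefSeq's gene table of the dog assembly UU_Cfam_GSD_1.0, and 14 of them stood next to another member in gene order, in 6 sets: PSMB8 with TAP1 and PSMB9, OAS1 with OAS3 and OAS2, MX2 with MX1, PARP9 with DTX3L, IFIT2 with IFIT3, and IFI44 with IFI44L. Neighbours did not always move alike. With TGFb in MDCK-NBL2, MX1 had a log2 change of -4.11 and MX2 of -2.17, and without replicate 2 of the untreated group MX1 had -3.77 and MX2 -0.59. At day 0, OAS2 differed between the sublines by -3.60, while OAS1 stood at 30.4, 33.4 and 28.7 CPM in MDCK-II and 25.4, 20.7 and 44.6 CPM in MDCK-NBL2. These examples were chosen after their values were seen.

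In untreated MDCK-NBL2 at day 4, replicate 2 was the highest in interferon genes and its cell cycle median was 2.59 log2 units below the other replicates. In replicate 3 the cell cycle median was 2.21 units above the others. In that library 23 of the 39 tested interferon genes were at least 2-fold below, against 12.7% of all genes. In untreated MDCK-II at day 4, replicate 1 had 21 of the 39 interferon genes at least 2-fold above the other replicates, against 7.83% of all genes. Its cell cycle median relative to the other replicates was -0.60. In siPRRX1 replicates 1, 2 and 3, the interferon medians relative to the other replicates were -1.14, 0.82 and 0.28. The cell cycle medians of these libraries were -0.19, 0.45 and -0.10, so the 2 sets did not move in opposite directions in replicates 1 and 2. The part of cell cycle activity in these levels was not tested.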
